A study of Mus musculus with 2 samples.

Results

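Ion channel subunit genes were examined in the adrenal gland of male B6CASTF1/J mice aged 2 months, an F1 hybrid with a B6 and a CAST genome. The members were chosen by their read counts and names: they are the protein-coding genes whose symbols begin with Kcn, Cacn, Clcn, Hcn, Chrn, Ano, Trpc, Trpm, Trpv or Scn and a digit, and that had at least 1 read in each library. The two-pore potassium channels (Kcnk), Kcnj5, Cacna1d and Cacna1h were left out by the rule. Of 179 annotated genes that carry such a symbol, 64 were members, 33 were read in 1 library only and 82 had no read. In the whole series 13192 annotated genes were read in both libraries.

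The data are long-read RNA sequencing of the whole gland in 1 group of 2 libraries, with no treatment and no genotype contrast. Gene-assigned reads numbered 824225 in replicate 1 and 656826 in replicate 2. The labels number the libraries as biological replicates 1 and 2, but the library descriptions name the same male for both. They therefore do not show that the libraries came from separate animals. The p-values set the difference between these libraries against counting error alone, and such a difference may be technical. Levels are CPM of gene-assigned reads, given as mean ± SD over n = 2, where 1 read is worth 1.21 CPM in replicate 1 and 1.52 CPM in replicate 2. With 0 reads, the level may still be as high as that of 3 reads, which is 3.64 CPM in replicate 1 and 4.57 CPM in replicate 2.

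The tissue matched its label. All 7 cortical marker genes were read in both libraries, at 58740 and 62775 CPM in sum, and so were all 10 chromaffin markers, at 11385 and 12554 CPM. Other cells were present too: the 8 adipocyte markers summed to 18277 CPM in replicate 1 and 10228 in replicate 2, and the 5 red cell markers to 1955 and 819. The 5 smooth muscle markers summed to 294 and 195 CPM, the 6 endothelial markers to 591 and 807. None of 8 skeletal muscle markers was read in both libraries. In a whole gland, fewer cells of a type and less RNA per cell cannot be told apart.

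Ion channels are membrane pores, usually built from several subunits, that set the electrical state of a cell. Zona glomerulosa cells hold a very negative resting potential through potassium channels, and depolarization opens calcium channels that drive aldosterone synthesis. Chromaffin cells fire action potentials when acetylcholine from the splanchnic nerve opens nicotinic receptors, and the calcium that then enters releases catecholamines. Members of the Clcn and Ano families also work in internal membranes, as chloride-proton exchangers of endosomes and lysosomes and as lipid scramblases or membrane tethers.

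Several of the choices that separate the transcripts of these genes change the coding sequence, and the stretches below show them. The sequences come from the GENCODE M21 transcripts (build GRCm38), 5′ to 3′ on the coding strand. Capitals mark the start codon in the Clcn4 start-codon exon and in both Kcnh2 exons, and the outer bases GT and AG in the Clcn4 spliced stretch. The first is the coding part of the Clcn4 exon that holds the start codon (chr7:7296724-7296828, minus strand). Next comes a 93-base stretch of a Clcn4 coding exon that some reads splice out as an intron (chr7:7291727-7291819, minus strand). They are followed by the rival first coding exons of Kcnh2 (chr5:24351208-24351283 and chr5:24329165-24329272, minus strand). The remaining ones are coding exons that were held in some reads and skipped in others, from Clcn2 (chr16:20707573-20707632, minus strand), Ano6 (chr15:95830644-95830706, plus strand), Clcn3 (chr8:60914753-60914828, minus strand) and Cacnb1 (chr11:98010627-98010646, minus strand).
Clcn4 start-codon exon: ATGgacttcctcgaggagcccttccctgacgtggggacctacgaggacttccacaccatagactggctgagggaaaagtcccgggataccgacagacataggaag
Clcn4 spliced stretch: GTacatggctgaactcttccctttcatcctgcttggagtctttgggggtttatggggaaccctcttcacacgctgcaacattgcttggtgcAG
Kcnh2-201 first exon: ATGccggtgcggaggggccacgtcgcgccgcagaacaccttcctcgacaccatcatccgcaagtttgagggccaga
Kcnh2-202 first exon: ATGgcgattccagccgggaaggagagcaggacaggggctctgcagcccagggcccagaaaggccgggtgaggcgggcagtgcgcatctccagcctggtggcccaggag
Clcn2 exon: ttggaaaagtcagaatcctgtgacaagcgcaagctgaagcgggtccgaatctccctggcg
Ano6 exon: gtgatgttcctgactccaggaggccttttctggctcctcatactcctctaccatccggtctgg
Clcn3 exon: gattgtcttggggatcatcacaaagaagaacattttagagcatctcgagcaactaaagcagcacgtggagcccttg
Cacnb1 exon: ccaaacagaagcagaaatcg

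Because reads chose the members, their levels are a description. Together they took 984 reads in replicate 1 and 1039 in replicate 2, or 1388 ± 274 CPM. A few genes held most of these reads: the first 3 genes took 49.5% and the first 10 took 71.1%. Only 3 members stood above 100 CPM on average, and 26 stood above 10 CPM. At the lower edge, 9 members had 1 read in each library, among them Cacna1b and Scn3a, while just outside the rule Chrna4 had 0 and 6 reads and Kcnj2 had 3 and 0. Of the genes read in 1 library only, 18 had a single read.

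**Figure D1:**
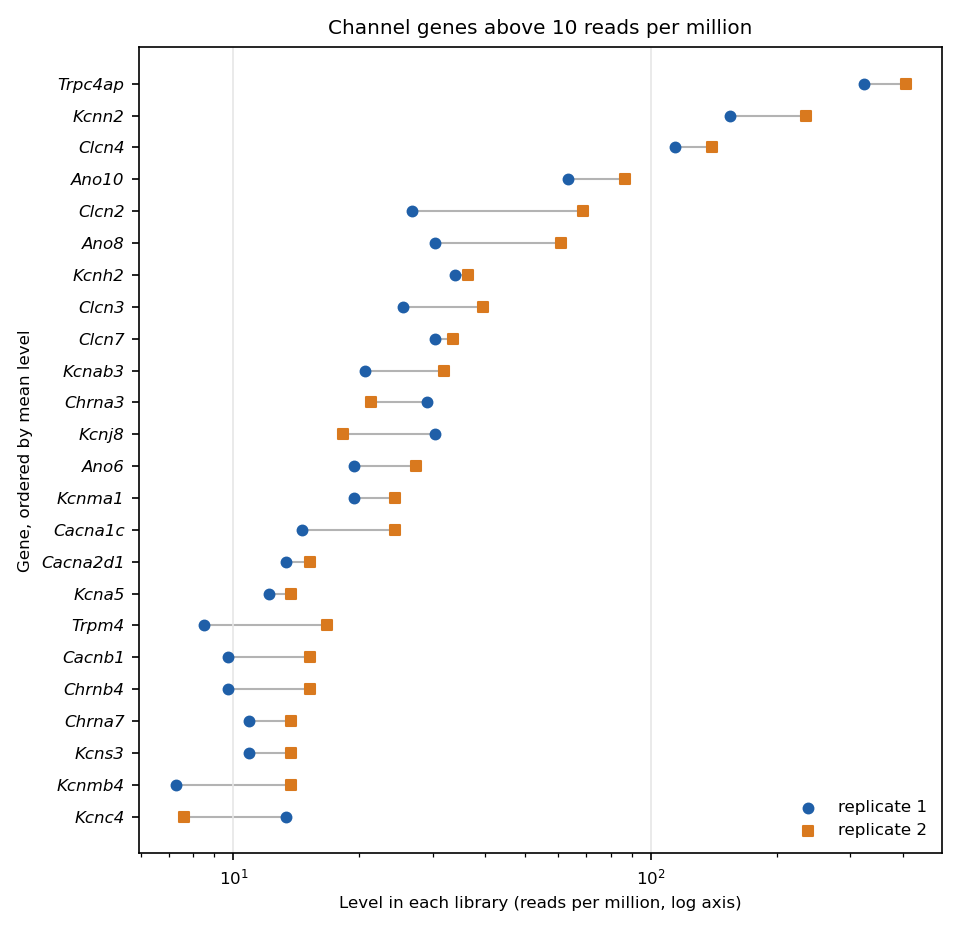
Level of 24 of the 26 channel genes above 10 CPM on average, in CPM on a log axis, with 1 point per library and a line joining the libraries. Trpc4ap, Kcnn2 and Clcn4 stand above 100 CPM in both libraries, and the other genes lie below 90 CPM.

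The highest gene in the list is not a channel. Trpc4ap was included by its prefix and encodes an adaptor protein named for its binding to TRPC4. It had 267 reads in each library (324 and 407 CPM). Without it the members summed to 1023 ± 216 CPM. TRPC4 itself had no read, and the TRPC pore gene Trpc1 was read in both libraries.

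Among the potassium channel members, which by the rule exclude Kcnk genes and Kcnj5, Kcnn2, which encodes the small-conductance calcium-activated channel SK2, was far above the rest. It had 127 reads in replicate 1 and 154 in replicate 2 (154 and 234 CPM), and the whole group of calcium- and sodium-activated pore subunits summed to 222 ± 60.4 CPM. Kcnma1, the pore of the large-conductance BK channel, had 16 reads in each library (21.9 ± 3.50 CPM). The related genes Kcnn1, Kcnn3 and Kcnn4 had at most 4 reads in a library. Divided by the length of the most read annotated transcript, Kcnn2 (113 CPM per kb) stood beside Trpc4ap (114 CPM per kb). For Kcnn2 that transcript has 1725 bases, of which 1722 are coding, while the longest coding transcript of the gene has 3682. With that longer length Kcnn2 would stand lower, so these values do not show Kcnn2 and Trpc4ap to be level per kb. Kcnma1 had no read on an annotated model; divided by its longest coding transcript, it moved from rank 15 to rank 31.

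Voltage-gated potassium pore subunits were the largest group, with 40 annotated genes, of which 12 were members and 18 had no read. They summed to 107 ± 5.67 CPM. Kcnh2, the pore of the rapid delayed rectifier, led with 28 and 24 reads (35.3 ± 1.82 CPM). Kcna5, a delayed rectifier, had 10 and 9 reads. The silent subunit gene Kcns3, whose product forms channels only with other pore subunits, had 9 reads in each library, and Kcnc4, a fast inactivating channel, had 11 and 5. Below Kcnh2 these named genes lie within a few reads of each other, so their order is not resolved at this depth.

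Inward rectifiers were represented mainly by Kcnj8, the pore of a potassium channel gated by ATP, with 25 reads in replicate 1 and 12 in replicate 2 (24.3 ± 8.53 CPM). Its sulfonylurea receptor partners were scarce: Abcc9 had no read in either library and Abcc8 had 1 and 2. Kcnj4 had 6 and 3 reads, and Kcnj11, the other pore gene of this channel type, had 0 and 1. Accessory subunits were led by Kcnab3, a cytoplasmic beta subunit, with 17 and 21 reads. Kcnmb4, a beta subunit of the BK channel, had 6 and 9 reads, whereas Kcnmb1 had none.

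Calcium channel pore genes inside the rule were few. Cacna1c, an L-type pore, had 12 and 16 reads (19.5 ± 6.93 CPM), of which 7 and 5 had no compatible splice pattern. None of the Cacna1c reads was on an annotated model. Cacna1a, the P/Q-type pore, had 3 and 1 reads. The auxiliary subunits of calcium channels summed to 51.8 ± 14.97 CPM over 9 members, beside 23.4 ± 5.65 CPM over the 3 pore genes. Cacna2d1, an alpha2-delta subunit, had 11 and 10 reads and Cacnb1 had 8 and 10. The sums leave out Cacna1d and Cacna1h, which the rule excludes.

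The sodium channel pore genes read in both libraries summed to 5 reads in replicate 1 and 3 in replicate 2. These pore genes were Scn7a, a sodium-sensing channel (4 and 2 reads), and Scn3a (1 and 1). Scn9a and Scn1a had no read. Hcn2, a hyperpolarization-activated cation channel, had 2 and 3 reads and was the only member of its family.

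The nicotinic receptor genes with most reads were those of the ganglionic type and Chrna7. Chrna3 had 24 and 14 reads (25.2 ± 5.52 CPM), Chrnb4 had 8 and 10, and Chrna7, which forms receptors of a single subunit, had 9 in each library. Other neuronal subunit genes were read in 1 library only: Chrna4 had 0 and 6 reads, Chrnb2 had 3 and 0, and Chrna5 and Chrna9 had 0 and 1 each. The muscle type was nearly absent, with 1 and 2 reads on Chrnb1 and none on Chrna1, Chrnd, Chrne and Chrng. Genes whose products help assemble or modulate these receptors were well read: Tmem35a had 284 and 257 reads, Ric3 had 47 and 54, and Lynx1 had 95 and 125.

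Among the Clcn genes, most reads were on the exchangers of internal membranes, and all 5 of these genes were members, at 200 ± 31.1 CPM. Clcn4 had 94 and 92 reads (127 ± 18.4 CPM), Clcn3 had 21 and 26, and Clcn7, the lysosomal exchanger, had 25 and 22. Ostm1, the beta subunit of the Clcn7 exchanger, had 43 and 49 reads. In the plasma membrane group, Clcn2 was read with 22 reads in replicate 1 and 45 in replicate 2 (47.6 ± 29.6 CPM), and Clcn1 had none. Activating mutations of human CLCN2 are known to cause familial hyperaldosteronism.

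Anoctamins summed to 146 ± 45.3 CPM, and 4 of 10 genes were members. Ano10 had 52 and 57 reads, Ano8, which tethers the endoplasmic reticulum to the plasma membrane, had 25 and 40, and Ano6, a calcium-activated lipid scramblase, had 16 and 18. Ano1, the calcium-activated chloride channel, had 1 and 2. Among TRP channels, Trpm4, a calcium-activated cation channel, had 7 and 11 reads and Trpv4 had 6 in each library. The TRP group summed to 35.9 ± 0.958 CPM.

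**Figure D2:**
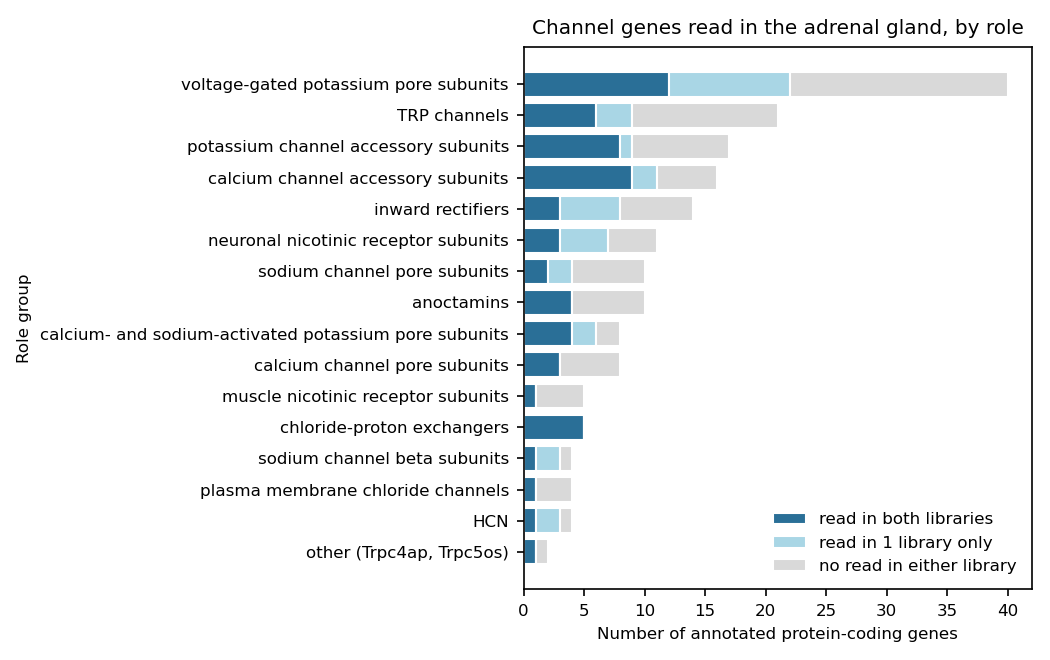
Number of annotated protein-coding genes of each role group that were read in both libraries, in 1 library only or in neither. All 5 chloride-proton exchanger genes were read in both libraries, against 12 of 40 voltage-gated potassium pore genes.

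Differences between the libraries were tested gene by gene with an exact binomial test over all 8063 annotated genes with at least 20 reads in sum, and calls needed both a 2-fold ratio and an adjusted p under 0.05. Of the 64 members, 18 had enough reads and 46 did not. One of these 18, Clcn2, was called, beside 3.41% of all genes tested in either direction and 1.05% that were higher in replicate 2. No gene with such a symbol and 20 reads in sum lacked reads in 1 library, so the need for a read in each library removed none from this test. Clcn2 had 22 reads in replicate 1 and 45 in replicate 2, a log2 ratio of 1.23 (replicate 2 over replicate 1, exact binomial test, adjusted p = 0.00819). The call was lost once the length trend of the ratios was taken out (log2 1.04, adjusted p = 0.0709) and with annotated transcripts alone (log2 0.89, adjusted p = 0.498). Clcn2 overlaps Polr2h and Fam131a on the genome, and the strand setting of the counting is not stated in the labels or headers. Of 67 Clcn2 reads, 1 had no compatible splice pattern. Without reads of that class Clcn2 was still called (log2 1.28, exact binomial test, adjusted p = 0.00672). Whether reads of the overlapping genes entered its count was not tested.

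Kcnn2 passed the adjusted p but not the fold threshold (log2 0.50, exact binomial test, adjusted p = 0.0389), beside 11.1% of all genes at the adjusted p alone. It did not pass with DESeq2 size factors (adjusted p = 0.0771), with annotated models alone (0.105) or without a filter on low counts (0.0778). By the same test it passed with library totals (0.00711), with the length trend removed (0.0341) and without reads of no compatible splice pattern (0.0378). Kcnn2 stayed under 2-fold in all of these settings. Ano8 (log2 0.88) leaned the same way and did not pass (exact binomial test, adjusted p = 0.0945). Kcnj8 (log2 -0.80) and Chrna3 (log2 -0.53) had fewer reads in replicate 2 and did not pass either (exact binomial test, adjusted p = 0.356 and 0.659). The ratio was above 0 for 16 of the 18 members tested. Their median log2 ratio was 0.37, against 0.01 over all genes tested, and 0.24 after removal of the length trend, against 0.00. The adipocyte and red cell markers were lower in replicate 2, and their part in these ratios was not tested.

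**Figure D3:**
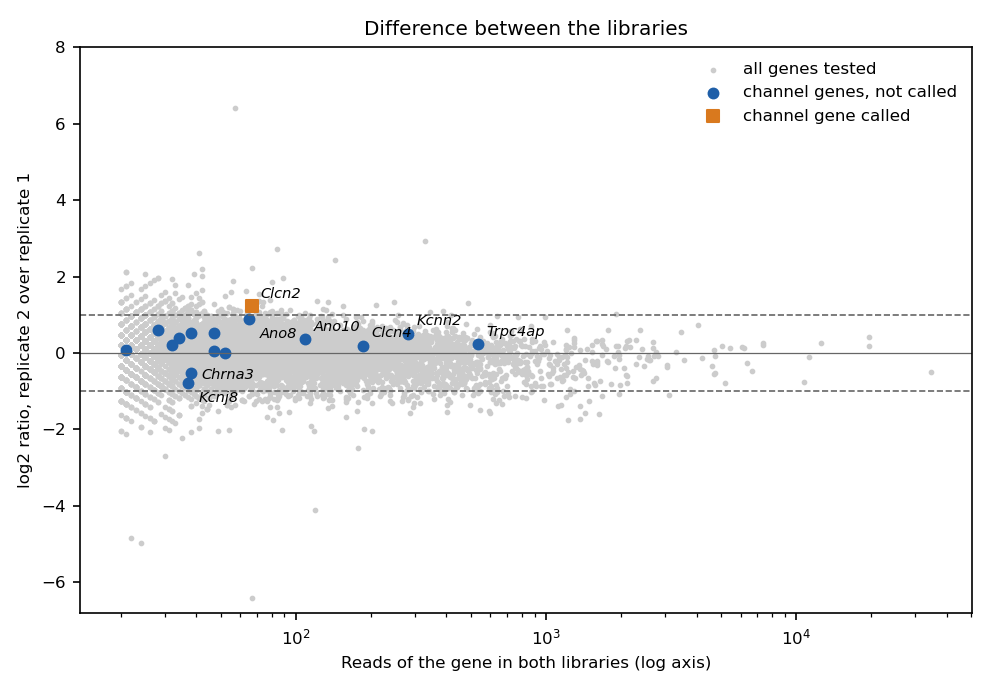
log2 ratio of replicate 2 over replicate 1 against the reads of the gene in both libraries on a log axis, for all 8063 genes tested (grey) and 16 of the 18 channel genes tested (coloured). Dashed lines mark a 2-fold ratio. Clcn2 is the only channel gene called, and most channel genes lie between the lines and above 0.

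Part of the channel gene reads did not match a complete annotated splice pattern. In replicate 1, 63.5% of their reads (Wilson 95% interval 60.5 to 66.5%) were on annotated models, and in replicate 2 61.3% (58.3 to 64.2%). Over all annotated genes the shares were 79.4% and 79.0%. Without Trpc4ap the channel gene shares were 54.3% and 52.2%. Reads that cover only part of an annotated model made up 17.9% and 19.0% of the channel gene reads, against 8.41% and 8.32% over all genes. New combinations of known splice sites made up 6.50% and 8.37%, against 3.98% and 5.34% over all genes. Reads with new splice sites made up 6.91% and 7.70%, against 3.49% and 4.04%. The members' own range is wide, and these intervals cover counting error only.

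A second measure asked whether a read's model holds a complete annotated coding sequence, whatever its untranslated ends. It did for 72.1% of channel gene reads in replicate 1 and 68.9% in replicate 2, against 82.2% in each library over all protein-coding genes. Without Trpc4ap the channel gene shares were 66.1% and 62.4%. At least 1 read on a model with a complete coding sequence was found in both libraries for 40 of the 64 members, and 14 members had none in either. Of 13884 protein-coding genes with reads and a complete annotated coding sequence, 10455 had such a read in both libraries and 1698 in neither. That set, unlike the members, includes genes read in 1 library only. Models with a complete coding sequence took 37 of 38 Chrna3 reads and 35 of 37 Kcnj8 reads. Kcna5 (19 of 19) and Kcns3 (18 of 18), whose coding sequences lie in 1 exon, had every read on such a model. The exons compared are those of the model, so a read that ends inside a first or last exon can still count. For Kcna5 and Kcns3 the shares therefore do not show that the reads span the coding sequence. Kcnma1 had none in 32 reads, which allows a share of up to 9.38%, and Cacna1c none in 28, which allows up to 10.7%. The longest coding transcripts of these genes are 12094 and 13162 bases.

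Over the 18 members with at least 20 reads in sum, the share of reads on annotated models was lower in genes with longer coding transcripts (Spearman rho -0.53, Pearson r -0.63, across genes, which are not independent replicates and share the same libraries). Cacna2d1 had 3 of 21. For Kcnma1 the most read model joined 26 exons and lacked the start of a 29-exon transcript, with 4 reads in each library. Part of the Kcnab3 reads were short too: a model of the last 3 exons had 8 reads in each library, against 8 and 10 on the whole 14-exon transcript. Trpm2 was read mostly as its last 3 exons, with 3 and 2 reads.

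**Figure D4:**
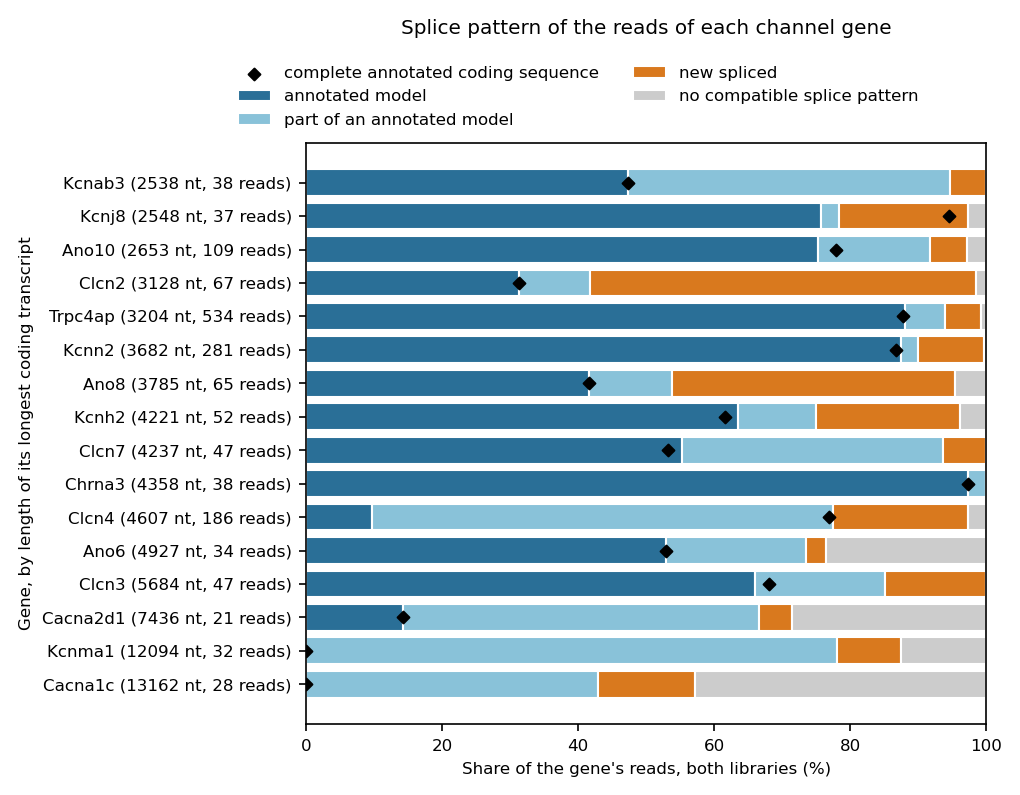
Share of each gene's reads on annotated models, on parts of annotated models, on new spliced models and on models with no compatible splice pattern, for 16 of the 18 channel genes with at least 20 reads in sum, ordered by the length of the longest coding transcript. Black diamonds give the share of reads on models that hold a complete annotated coding sequence. It is 0 for Kcnma1 and Cacna1c, and 76.9% for Clcn4 although only 9.68% of Clcn4 reads are on annotated models.

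Clcn4 (chr7:7282309-7300851, minus strand, mm10) was the only one of the 10 members with at least 20 reads in each library whose most read model is not an annotated transcript. Among members with fewer reads, those of Trpm4, Kcnc4, Kcnma1, Cacna1c and Trpm2, for example, were not annotated either. Its most read model has 12 exons and equals Clcn4-201 without the upstream first exon, and it took 44 of 94 reads in replicate 1 (46.8%, 37.0 to 56.8%) and 49 of 92 in replicate 2 (53.3%, 43.1 to 63.1%). The model starts 762 bases downstream of the annotated start of Clcn4-201, inside its second exon, and keeps the whole coding sequence of 2241 bases. Of 171 spliced reads that reach this exon, 167 started in it and 4 continued into an exon further upstream. By library these were 85 of 86 and 82 of 85 reads. Clcn4-203 has its annotated start in the same exon. Whether the molecules themselves began there was not tested.

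The Clcn4 start codon lies in an exon that was not always held. The exon (chr7:7296724-7296878, 155 bases) was present in 65 of 80 informative reads in replicate 1 (81.3%) and 59 of 76 in replicate 2 (77.6%). Reads without it have the pattern of Clcn4-206, whose annotated coding sequence begins in a later exon and spans 2061 bases, so it lacks the first coding stretch shown above. A separate choice removed the 93-base stretch, a multiple of 3 that keeps the reading frame, in 11 of 87 and 8 of 87 reads (10.9% in sum, 7.10 to 16.4%). In terms of complete coding sequences, Clcn4-201 had 44 and 53 reads, Clcn4-206 had 15 and 16, and Clcn4-203, which lacks the 93 bases, had 9 and 6. All of these forms were found in each library.

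Kcnh2 (chr5:24319589-24351604, minus strand) was read from both of its annotated starts. The long form Kcnh2-201 has 15 exons, a coding sequence of 3486 bases and the amino-terminal domain that slows channel closing. The short form Kcnh2-202 has 11 exons, 2460 coding bases and its own first exon. Reads that tell them apart were 12 long and 11 short in replicate 1, and 16 long and 7 short in replicate 2, which is 60.9% long in sum (46.5 to 73.6%). Reads on the exact annotated models were 6 and 11 for the long form and 10 and 5 for the short form. The share of the leading model differed by 24.4 percentage points between the libraries, and this did not pass Fisher's exact test (p = 0.0799, adjusted p = 0.739). Both forms were thus present in each library, and their ratio is not resolved. Another 5 reads (2 and 3) carried the long form with an unannotated intron of 171 bases inside 1 exon.

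Clcn2 (chr16:20702964-20717746, minus strand) had a frequent transcript outside the annotation. A new combination of known splice sites, Clcn2-201 without the 60-base exon shown above, had 8 reads in replicate 1 and 4 in replicate 2, beside 8 and 13 reads on Clcn2-201 itself. Counting every informative read, the exon was held in 9 of 18 reads in replicate 1 and 28 of 36 in replicate 2 (77.8%), or 68.5% in sum (55.3 to 79.3%). Replicate 1 had fewer than 20 informative reads, so the exon was not among those tested. In all, 38 of 67 Clcn2 reads were on new spliced models.

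Clcn3 used several starts and 2 optional exons. Reads with the start of Clcn3-203 were 6 of 11 in replicate 1 and 10 of 15 in replicate 2, the others having the start of Clcn3-202. An optional second exon of 176 bases was held in 7 of 13 and 6 of 17 reads. The 76-base exon before the last one, which changes the carboxy terminus, was held in 2 of 19 and 2 of 23 reads (9.52% in sum, 3.77 to 22.1%), so most Clcn3 reads had the form that skips it. No single Clcn3 transcript reached 31% of the gene's reads in either library.

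Smaller choices were seen in other members. Ano6 held its 63-base exon in 2 of 10 and 3 of 10 reads. Ano8 skipped a 133-base coding exon in 1 of 18 reads in replicate 1 and 8 of 31 in replicate 2. Cacnb1 held the 20-base exon in 5 of 6 and 2 of 8 reads, and Trpm4 a 175-base coding exon in 4 of 6 and 2 of 8. These counts are too small to order the libraries.

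**Figure D5:**
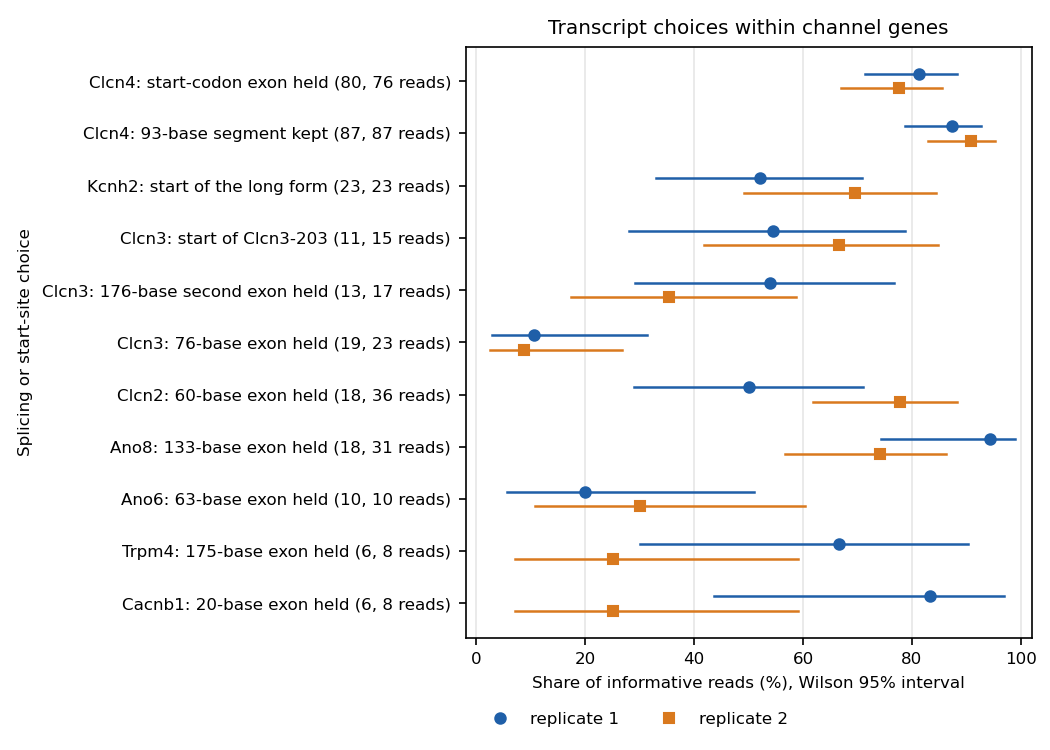
Share of informative reads with each named splicing or start choice, in percent, for replicate 1 (circles) and replicate 2 (squares), with Wilson 95% intervals and the number of informative reads beside each name. The Clcn4 exon and stretch have the narrowest intervals, and the intervals of the libraries overlap for every choice plotted.

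In contrast, other abundant members used 1 main transcript. Kcnn2-208, which encodes the short form of SK2 with 1722 coding bases, took 112 of 127 reads (88.2%, 81.4 to 92.7%) and 132 of 154 (85.7%, 79.3 to 90.4%). None of 275 spliced Kcnn2 reads that reach its first exon continued upstream toward the long form Kcnn2-201, which allows up to 1.09% of such reads. A long-form molecule read only from inside this exon would look the same, so the share of that form is not bounded. Whether the Kcnn2 molecules began there was not tested. Trpc4ap-201 took 84.6% and 83.5% of the reads, and Ano10-201 took 76.9% and 73.7%. In the other direction, the leading transcript held under 50% in both libraries for Ano8, Kcnh2, Clcn2 and Clcn3. These are 4 of the 10 members with at least 20 reads in each library, beside 14.4% of all genes measured the same way. Clcn7-201 took 14 of 25 and 11 of 22 reads.

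Of 10 members with at least 20 reads in each library, none had a leading transcript at 90% or more in both, against 19.6% of the 5334 genes measured the same way. A difference in that share between the libraries was called (adjusted p under 0.05 and 10 percentage points) for 0 of the 10 members by Fisher's exact test, beside 1.14% of all genes, and none had an unadjusted p under 0.05. For internal exons, 73 annotated exons of 7 members had at least 20 informative reads in each library. Of these, 61 were held in every informative read and 70 were above 90% in both libraries. The Clcn4 start-codon exon was the only one between 10% and 90% in both. None was called by Fisher's exact test, beside 0.00249% of all exons tested, and none had an unadjusted p under 0.05.

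New spliced transcripts of the members were diverse and thinly read. There were 198 new spliced patterns in 47 members, 155 of them with a single read. None had at least 5 reads in each library, and 8, from 8 genes, had at least 2. Kcnn2 led with an extra 109-base exon (3 and 10 reads), followed by the Clcn2 form (8 and 4) and a Trpm4 form without its 175-base exon (2 and 5). Kcnc4 had an unannotated junction in 3 and 3 reads, Trpc4ap a kept intron of 1031 bases in 3 and 3, and Kcnj8 an unannotated junction in 3 and 2. These genes were chosen after their values were seen.

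Among 105 channel genes outside the rule, 54 were read in both libraries and 22 were tested, and 0 were called in either direction (exact binomial test, median log2 ratio 0.00, none at the adjusted p alone). The mitochondrial porins Vdac1 (269 and 228 reads), Vdac3 (204 and 133) and Vdac2 (164 and 126) and the chloride intracellular channel gene Clic1 (177 and 121) were read most. The store-operated calcium entry genes Orai1 and Stim1 had 39 and 31 reads and 22 and 17 reads, and the ATP-gated channel gene P2rx4 had 49 and 53. Of 20 partner genes, 11 were read in both libraries and 4 were tested. None was called, and Lynx1 alone passed the adjusted p (log2 0.62, exact binomial test, adjusted p = 0.0181).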

How the data were processed

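Raw read counts per transcript model were deposited by the authors for each library, with the exons of each model in a TALON annotation, per the file headers. Per the labels, the assembly is mm10. The other deposited columns give exon numbers, lengths and positions. The aligner is not given in the sources used. Gene types, coding sequences and exons came from GENCODE M21.

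Reads were summed per annotated gene over all TALON classes, with spike-in reads (5731 and 5156) taken out. Ratios of replicate 2 to replicate 1 were taken in log2 after adding 1 CPM, with TMM scaling from edgeR 4.0.16 in R 4.3.3. TMM moved all log2 ratios by 0.10 against library totals. With 1 group of 2 libraries, edgeR's quasi-likelihood test could not be fitted, so reads were compared by two-sided exact binomial tests (at least 20 reads in sum) and transcript and exon shares by two-sided Fisher's exact tests (at least 20 reads in each library), with Benjamini-Hochberg adjustment over all features tested. Calls of a share needed 10 percentage points and an adjusted p under 0.05. New spliced models were matched between libraries by intron chain. Exon inclusion is the share of reads that hold an exon among those that hold or skip it. Intervals are Wilson 95% and cover counting error only, since the files carry no molecular identifiers.

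On counts simulated from the real genes, 2-fold changes were called in 27.7% of changed genes, and in 11.5% of those under 70 reads, among 7817 genes, and 3-fold changes in 78.2% and 53.4% among 7793 genes. The simulated counts held Poisson error only, with no other difference between libraries. Calls need an observed ratio of 2-fold, so a true 2-fold change sits on the threshold and is often missed at any depth. Named genes were the 25 members of highest mean CPM, the first 2 of each role group, called members, leading transcripts of members with at least 20 reads in each library, new spliced transcripts and exons of intermediate inclusion. A few genes within this rule are not reported here or shown in the figures, though sums and counts include them. The splicing and start choices were picked after their values were seen. The members and lists were chosen with earlier results of these data known. Tools were Python 3.11.15, numpy 2.4.6, scipy 1.17.1, pandas 2.3.3, matplotlib 3.10.9 and, for size factors, DESeq2 1.42.0.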

Additional observations from a re-analysis of the deposited data

Results flagged for a closer look

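Reads of new transcripts on the strand opposite a channel gene were not part of any comparison above. In 5 members they exceeded 3 reads, the limit that a count of 0 allows, in each library. Opposite Cacna1c there were 6 such reads in replicate 1 and 16 in replicate 2, beside 12 and 16 reads of the gene itself. Kcnn2 had 10 and 8 opposite reads, Kcnma1 8 and 8, Kcnip4 7 and 4, and Cacnb2 4 and 6. Apart from 1 Cacna1c read in replicate 2, none of these reads was spliced. Control samples do not exist in the series, and the strand setting of the counting is not stated in the labels or headers.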

How the results depend on the processing

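Of the channel genes, 1 of 18 tested was called between the libraries, beside 3.41% of all genes. The count was 2 of 15 (3.70% of all genes) without reads of no compatible splice pattern, where Ano8 joined Clcn2 (log2 1.05, exact binomial test, adjusted p = 0.0438), 2 of 18 at the adjusted p alone (11.1%), 0 of 11 with annotated models alone (3.62%) and 0 of 18 with the length trend removed (1.65%). It stayed at 1 of 18 with DESeq2 size factors (3.77% of all genes), with library totals (3.21%) and for members with 5 or more reads in both libraries (3.41%). Without a filter on low counts it was 1 of 64 (1.44%). The log2 ratio of Clcn2 ranged from 0.89 to 1.33 (adjusted p from 0.00334 to 0.498), and the signs of Clcn7, Kcnh2 and Cacna2d1, all uncalled, changed with the setting. Members with a leading transcript at 90% in both libraries numbered 0 of 10, beside 19.6% of all genes. The count was 2 of 10 at 80% (42.6% of all genes) and 1 of 18 with a minimum of 10 reads (Chrna3, 17.1%). With annotated models alone it was 3 of 3, beside 73.7% of all genes. New spliced transcripts numbered 0 at 5 reads in each library and 8 at 2 reads. The share of reads on annotated models, 62.4%, was 69.7% in members read 20 or more times in both libraries, 53.2% without Trpc4ap and 67.8% without Clcn4, and 61.3 to 63.5% when either library was left out. The last 2 gene exclusions, and that of Trpc4ap from the summed level (1023 against 1388 CPM), were chosen after seeing the data. The summed level ran from 1194 to 1582 CPM when either library was left out. Counts of called exons and leading transcripts stayed at 0 in every alternative run. No paired analysis was possible because the libraries form 1 group. Depth limits the rest: with under 20 reads in sum, 46 of 64 members were not tested.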
